A study of Homo sapiens with 60 samples.

Results

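The gene set described here holds 37 genes of glucose metabolism and the low-oxygen response, out of 60675 genes in the deposited count table. The genes were chosen by name, as the table entries whose Ensembl identifier maps to a listed symbol; the rule uses no measured value, but the list was drawn up with earlier results of these data known. They fall into 17 glycolytic enzymes, 6 carriers and regulators of the pathway, and 14 stress genes of the kind driven by hypoxia-inducible factor (HIF). Of the 37 genes, 36 passed the filter on low counts and were tested. The exception was the neuronal-type glucose transporter SLC2A3, which had a count of 0 in 54 of 59 libraries and a highest count of 2.

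The genes were measured by mRNA sequencing of HT29, an established human colorectal adenocarcinoma line, after 24 h with ethanol extracts used in Korean medicine. Among single herbs, Polygalae Radix was given at 15.2, 76 and 380 µg/mL and Aucklandiae Radix at 14.8, 74 and 370 µg/mL, with 2 libraries at each dose. Menthae Herba and Saposhnikoviae Radix were given at 20, 100 and 500 µg/mL with 3 libraries at each dose, of which 2 were used for low-dose Saposhnikoviae Radix. The formulas Guibi-tang, Saengmaek-san, Soyo-san and Okbyeongpung-san were given at the same 20, 100 and 500 µg/mL, with 3, 3, 2 and 1 libraries per dose. Vehicle cells received DMSO, labelled as 0.1%, and gave 3 libraries; the design text of the series states another DMSO concentration, so the value is not settled here. The high dose was the concentration at the IC20 where that was under 500 µg/mL and 500 µg/mL otherwise. Whether replicates came from separate cultures is not stated, and the p-values therefore rest on variation among libraries that could be purely technical.

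Glycolysis splits glucose into pyruvate in a chain of cytosolic enzymes, and lactate dehydrogenase reduces the pyruvate to lactate so that the chain can continue without oxygen. HIF is a transcription factor whose alpha subunit is hydroxylated by EGLN enzymes and destroyed when oxygen is plentiful. When oxygen is short, HIF binds a short core motif and raises glucose uptake, most glycolytic enzymes, lactate export and secreted factors such as VEGFA. Colorectal tumour cells commonly run high glycolysis with oxygen present.

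Promoter sequences of 33 of the 37 genes were available from RefSeq (GRCh38.p14), each running from 250 bases before to 50 bases after the annotated start. The core of the HIF motif was searched as ACGTG and GCGTG on both strands, overlapping matches allowed. At least 1 of the motifs was present in 23 of the 33 promoters (69.7%), against 17012 of all 35116 promoters in the table (48.4%). By role, it was present in 12 of 17 enzyme promoters (70.6%), 3 of 5 carrier and regulator promoters (60%) and 8 of 11 HIF-type promoters (72.7%). A match describes these letters only and is not a binding site or a cause. The 6 promoters below belong to genes on which the results turn: 3 enzymes that fell with Polygalae Radix, the glucose transporter that rose most among the carriers with Aucklandiae Radix, and 2 HIF-type genes that went the other way there. Capitals mark the motif on either strand, and each sequence is written 5′ to 3′ along the gene's own strand.
LDHA, chr11:18394313-18394612, plus strand: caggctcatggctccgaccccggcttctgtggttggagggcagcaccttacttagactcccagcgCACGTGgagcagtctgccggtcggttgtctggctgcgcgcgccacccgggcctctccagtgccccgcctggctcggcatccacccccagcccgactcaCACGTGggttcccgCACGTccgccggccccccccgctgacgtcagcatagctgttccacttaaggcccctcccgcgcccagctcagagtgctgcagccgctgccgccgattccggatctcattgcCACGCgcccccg
PGK1, chrX:78103998-78104297, plus strand: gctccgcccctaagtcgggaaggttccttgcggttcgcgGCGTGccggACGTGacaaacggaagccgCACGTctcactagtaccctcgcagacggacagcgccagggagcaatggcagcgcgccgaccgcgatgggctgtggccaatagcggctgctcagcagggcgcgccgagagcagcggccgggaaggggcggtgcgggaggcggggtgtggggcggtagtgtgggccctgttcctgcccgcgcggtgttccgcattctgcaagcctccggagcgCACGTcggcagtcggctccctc
ENO1, chr1:8878637-8878936, minus strand: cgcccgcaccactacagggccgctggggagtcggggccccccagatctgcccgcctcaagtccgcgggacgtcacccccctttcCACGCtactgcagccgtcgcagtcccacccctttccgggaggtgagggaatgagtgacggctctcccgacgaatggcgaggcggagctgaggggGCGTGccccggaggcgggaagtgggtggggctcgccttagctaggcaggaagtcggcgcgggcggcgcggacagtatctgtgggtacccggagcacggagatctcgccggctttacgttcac
SLC2A1, chr1:42958819-42959118, minus strand: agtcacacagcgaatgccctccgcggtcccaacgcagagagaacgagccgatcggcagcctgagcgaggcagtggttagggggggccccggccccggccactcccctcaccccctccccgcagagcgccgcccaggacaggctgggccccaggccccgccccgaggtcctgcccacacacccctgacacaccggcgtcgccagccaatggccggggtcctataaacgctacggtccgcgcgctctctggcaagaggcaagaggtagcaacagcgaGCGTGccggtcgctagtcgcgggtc
CA9, chr9:35673678-35673977, plus strand: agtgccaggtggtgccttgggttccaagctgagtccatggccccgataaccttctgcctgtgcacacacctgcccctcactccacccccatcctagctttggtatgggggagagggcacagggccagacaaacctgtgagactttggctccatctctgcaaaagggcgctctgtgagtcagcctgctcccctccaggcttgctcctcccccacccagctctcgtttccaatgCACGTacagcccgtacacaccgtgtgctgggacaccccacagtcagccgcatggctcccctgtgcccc
BNIP3, chr10:131981874-131982173, minus strand: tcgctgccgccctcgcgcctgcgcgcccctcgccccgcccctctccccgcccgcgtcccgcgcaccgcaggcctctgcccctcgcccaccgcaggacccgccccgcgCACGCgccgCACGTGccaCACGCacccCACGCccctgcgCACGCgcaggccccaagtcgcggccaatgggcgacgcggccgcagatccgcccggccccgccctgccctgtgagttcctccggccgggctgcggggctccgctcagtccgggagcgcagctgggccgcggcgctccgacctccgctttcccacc

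The LDHA and BNIP3 promoters each held 6 matches, the PGK1 promoter 4, the ENO1 promoter 2, and the SLC2A1 and CA9 promoters 1 each. These 6 promoters were picked from the results, and a link between matches and response was not tested.

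Library totals ran from 18690454 to 36796397 counts in the 59 libraries used. Another library, low-dose Saposhnikoviae Radix replicate 2, stood apart with its best correlation to a group-mate at 0.845, against 0.989 to 0.993 in the other libraries, and mitochondrial genes held 3.33% of its counts, against 6.19% to 12.3%. The rule of the gene set leaves it out, so it entered no comparison below unless stated. Epithelial markers matched the label of the line: the summed level of 12 colorectal epithelial markers was 7692 to 15400 CPM (TMM-scaled counts relative to library size) in the 59 libraries, while 7 fibroblast, 6 blood cell and 3 endothelial markers summed to 1.55 to 3.515, 2.97 to 9.98 and 0.531 to 8.72 CPM. The top of the last 3 ranges is in each case a high-dose Aucklandiae Radix library.

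Before treatment effects, the levels in vehicle cells set the scale. Lengths here are the union of all annotated exons of a gene, so the order between genes depends on the annotation. Per kilobase of exon, the mean vehicle level was highest for GAPDH, which oxidises glyceraldehyde-3-phosphate, at 1131 CPM per kb. PKM, the pyruvate kinase gene, came next at 344.5 CPM per kb, followed by the aldolase ALDOA at 316 and the enolase ENO1 at 314.4 CPM per kb. Before division by length GAPDH averaged 3372 CPM and PKM 2952 CPM. The main glucose transporter SLC2A1 stood at 106.8 CPM per kb, close to the mutase PGAM1 at 109.1 CPM per kb. HIF-type genes were lower than these, but not lower than every enzyme. Of the HIF-type genes, HIF1A, the oxygen-regulated HIF subunit, stood at 21.6 CPM per kb and the surface carbonic anhydrase CA9 at 18.9 CPM per kb. Both were above some enzymes, such as HK2 at 10.9 and PFKL at 9.86 CPM per kb. The stress gene NDRG1 stood at 1.42 CPM per kb and the mitophagy receptor BNIP3 at 0.527 CPM per kb.

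**Figure D1:**
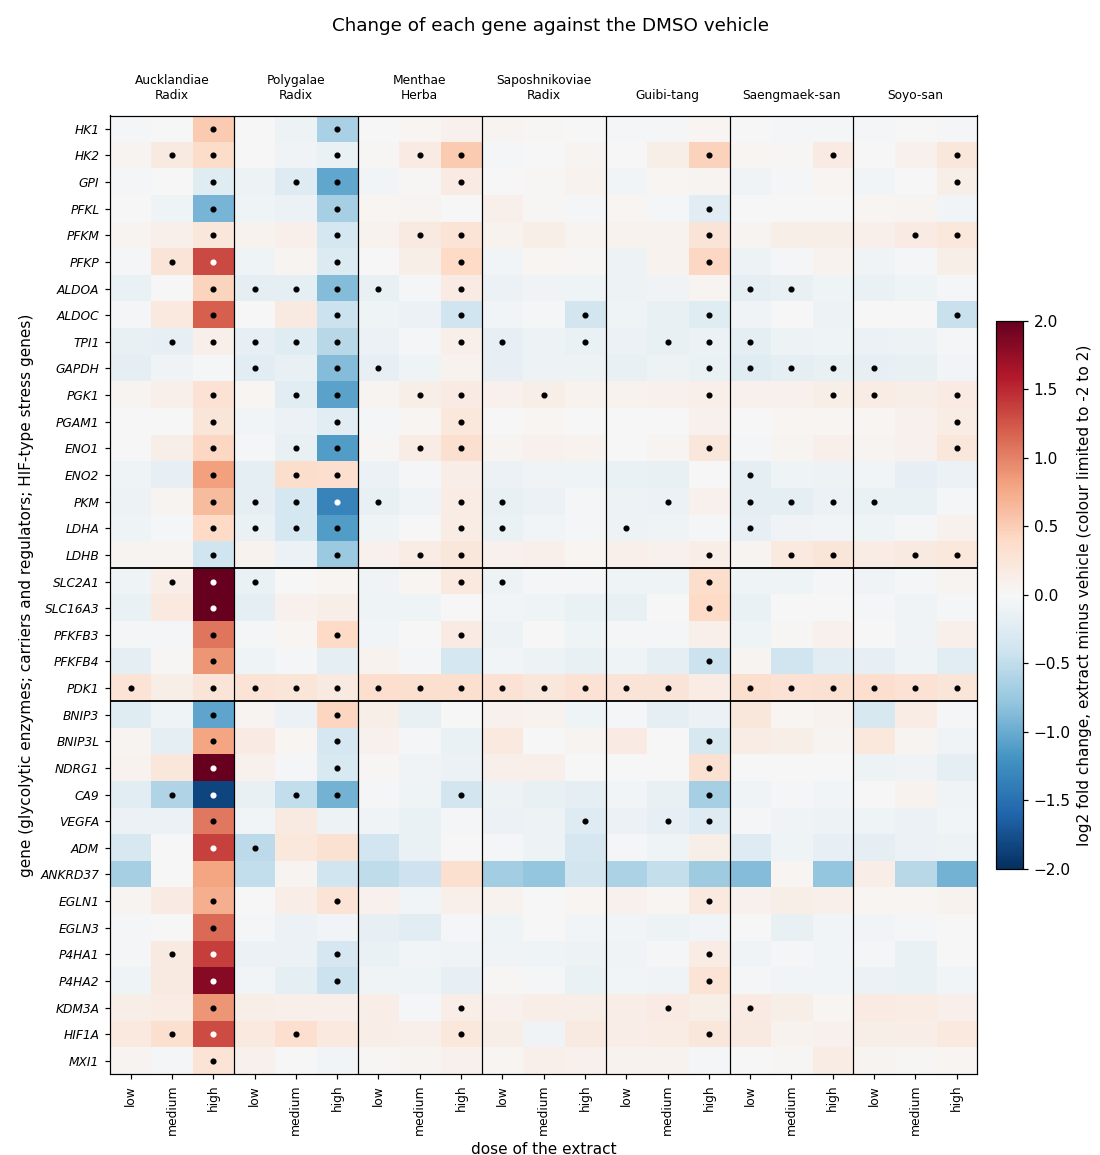
Log2 change against vehicle (colour) of the 36 tested genes (down the page, by role) in each extract at each dose (across). High-dose Aucklandiae Radix is the column with most carriers and HIF-type genes in the higher colour, up to 3.34 for NDRG1, and high-dose Polygalae Radix the column with most enzymes in the lower colour, down to -1.34 for PKM.

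With high-dose Aucklandiae Radix the carriers and most HIF-type genes rose strongly and the enzymes moderately. All 5 tested carriers and regulators rose against vehicle, with a median log2 change of 1.07. Of the 14 HIF-type genes 11 rose and 2 fell (median 0.97), and of the 17 enzymes 13 rose and 3 fell (median 0.37). In all, 34 of 36 genes were called at an adjusted p below 0.05 in edgeR's quasi-likelihood test, with the Benjamini-Hochberg method applied across the 16978 genes kept, against 62% of all genes tested (31% higher and 31% lower). Of the 36 genes, 12 rose and 2 fell at least 2-fold, against 7.35% and 9.9% of all genes. The median log2 change of all genes was -0.02. In bulk RNA, fewer cells of a type and less RNA per cell cannot be told apart, here and in every comparison that follows.

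Among the carriers, SLC2A1 (GLUT1), the main glucose importer of tumour cells, had 529.5, 493.3 and 491.3 CPM in vehicle, 462.2 and 486.6 CPM with low-dose Aucklandiae Radix, 560.2 and 552.3 CPM at the medium dose and 2353 and 2375 CPM at the high dose. Both high-dose libraries were above all other 57 libraries, of which the highest had 657.3 CPM. The log2 change was 2.23 ± 0.03 (SE) against vehicle (adjusted p = 1.81e-39) and 2.32 ± 0.04 against the low dose (adjusted p = 2.61e-37). SLC16A3 (MCT4), which exports lactate, had 206.2 and 216.7 CPM at the high dose, against 50.8, 48.5 and 52.2 CPM in vehicle and 46.9 and 45 CPM at the low dose. It too stood above every other library, with log2 changes of 2.06 ± 0.07 against vehicle (adjusted p = 1.34e-28) and 2.20 ± 0.08 against the low dose (adjusted p = 3.84e-27).

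The 2 kinase-phosphatases that set fructose-2,6-bisphosphate, an activator of phosphofructokinase, also rose. PFKFB3 had 70.6 and 70.2 CPM at the high dose, against 35.4, 33 and 32.3 CPM in vehicle, a log2 change of 1.07 ± 0.05 (adjusted p = 8.8e-23). PFKFB4 was lower, with 6.64 and 6.12 CPM at the high dose, 3.75, 2.93 and 3.61 CPM in vehicle and 3.13 and 2.98 CPM at the low dose. The groups did not overlap for either gene. The log2 change of PFKFB4 was 0.89 ± 0.14 against vehicle (adjusted p = 2.88e-07) and 1.06 ± 0.16 against the low dose (adjusted p = 1.39e-07).

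NDRG1, a hypoxia-induced gene of stress and differentiation, changed more than any other member. It had 13.4, 13.2 and 15.2 CPM in vehicle, 14.8 and 14.3 CPM with low-dose Aucklandiae Radix, 16.1 and 16.6 CPM at the medium dose and 142.2 and 139.1 CPM at the high dose. The change lay between the medium and the high dose, and no other library exceeded 17.9 CPM. Its log2 change against the low dose was 3.27 ± 0.09, a 9.66-fold rise (adjusted p = 1.09e-30).

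The collagen prolyl hydroxylases P4HA1 and P4HA2, which modify procollagen in the endoplasmic reticulum, rose in step. P4HA2 had 72.1 and 74.4 CPM at the high dose, against 19.9, 22.3 and 20 CPM in vehicle and 19.4 and 19.6 CPM at the low dose, a log2 change of 1.82 ± 0.07 against vehicle (adjusted p = 2.54e-26). P4HA1 had 79.1 and 79.6 CPM at the high dose, against 29.2, 31.8 and 30.4 CPM in vehicle and 29.4 and 30.6 CPM at the low dose, a log2 change of 1.38 ± 0.05 against vehicle (adjusted p = 3.47e-25). For both genes the 2 high-dose libraries lay close together and above every other library.

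Genes of secreted factors and of oxygen sensing moved the same way. VEGFA, the angiogenic growth factor, had 144.3 and 146.3 CPM at the high dose, against 70.5, 70 and 69.8 CPM in vehicle (log2 change 1.05 ± 0.06, adjusted p = 4.56e-20). ADM, which encodes the vasodilator peptide adrenomedullin, had 8.8 and 8.98 CPM, against 3.06, 3.53 and 3.84 CPM in vehicle (log2 change 1.36 ± 0.13, adjusted p = 2.82e-12). HIF1A itself had 267.8 and 278.3 CPM at the high dose, against 102.1, 117.7 and 113.8 CPM in vehicle, a 2.46-fold rise (adjusted p = 1.67e-17), and its log2 change against the low dose was 1.11 ± 0.09 (adjusted p = 1.11e-13). The high-dose libraries were above all others for each of these 3 genes. EGLN3, a HIF hydroxylase that HIF induces, had 21.4 and 20.2 CPM, against 10.1, 9.82 and 8.67 CPM in vehicle, and rose by 1.12 ± 0.08 on the log2 scale (adjusted p = 1.8e-15). Smaller rises were called for EGLN1 (0.72 ± 0.07), the histone demethylase KDM3A (0.89 ± 0.05), the mitophagy receptor BNIP3L (0.79 ± 0.09) and the MYC antagonist MXI1 (0.28 ± 0.06). ANKRD37, an ankyrin-repeat gene induced by HIF, had 2.26 and 1.13 CPM at the high dose, against 0.8, 1.03 and 1.18 CPM in vehicle and 0.529 and 0.718 CPM at the low dose. Its groups overlapped against vehicle (log2 change 0.79 ± 0.41, adjusted p = 0.094). Against the low dose its change of 1.45 ± 0.49 was called (adjusted p = 0.0107), but without high-dose replicate 2 the adjusted p was 0.262.

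Both HIF-type genes that fell, CA9 and BNIP3, are textbook HIF targets. CA9, which acidifies the cell surface, had 28.5, 33.3 and 32.8 CPM in vehicle, 27.9 and 26.7 CPM with low-dose Aucklandiae Radix, 20.4 and 20.9 CPM at the medium dose and 9.38 and 8.24 CPM at the high dose. All 3 dose groups were thus separate from each other, and the medium dose was called against vehicle as well (log2 change -0.61 ± 0.08, adjusted p = 1.64e-07). The high-dose change was -1.83 ± 0.09 against vehicle (adjusted p = 2.6e-22) and -1.62 ± 0.09 against the low dose (adjusted p = 3.33e-19). BNIP3 had 1.57 and 1.13 CPM at the high dose, against 3.14, 2.73 and 2.54 CPM in vehicle, a log2 change of -1.05 ± 0.18 (adjusted p = 1.86e-06). That gene is uncertain: the table holds 44 named BNIP3 pseudogenes, and reads can be split between near-identical copies. The summed pseudogenes had 5.78 ± 0.788 CPM (SD, n = 2) at the high dose and 2.18 ± 0.334 CPM in vehicle (SD, n = 3), so the sum of gene and pseudogenes was higher at the high dose, at 7.13 ± 0.476 CPM, than in vehicle, at 4.99 ± 0.632 CPM.

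**Figure D2:**
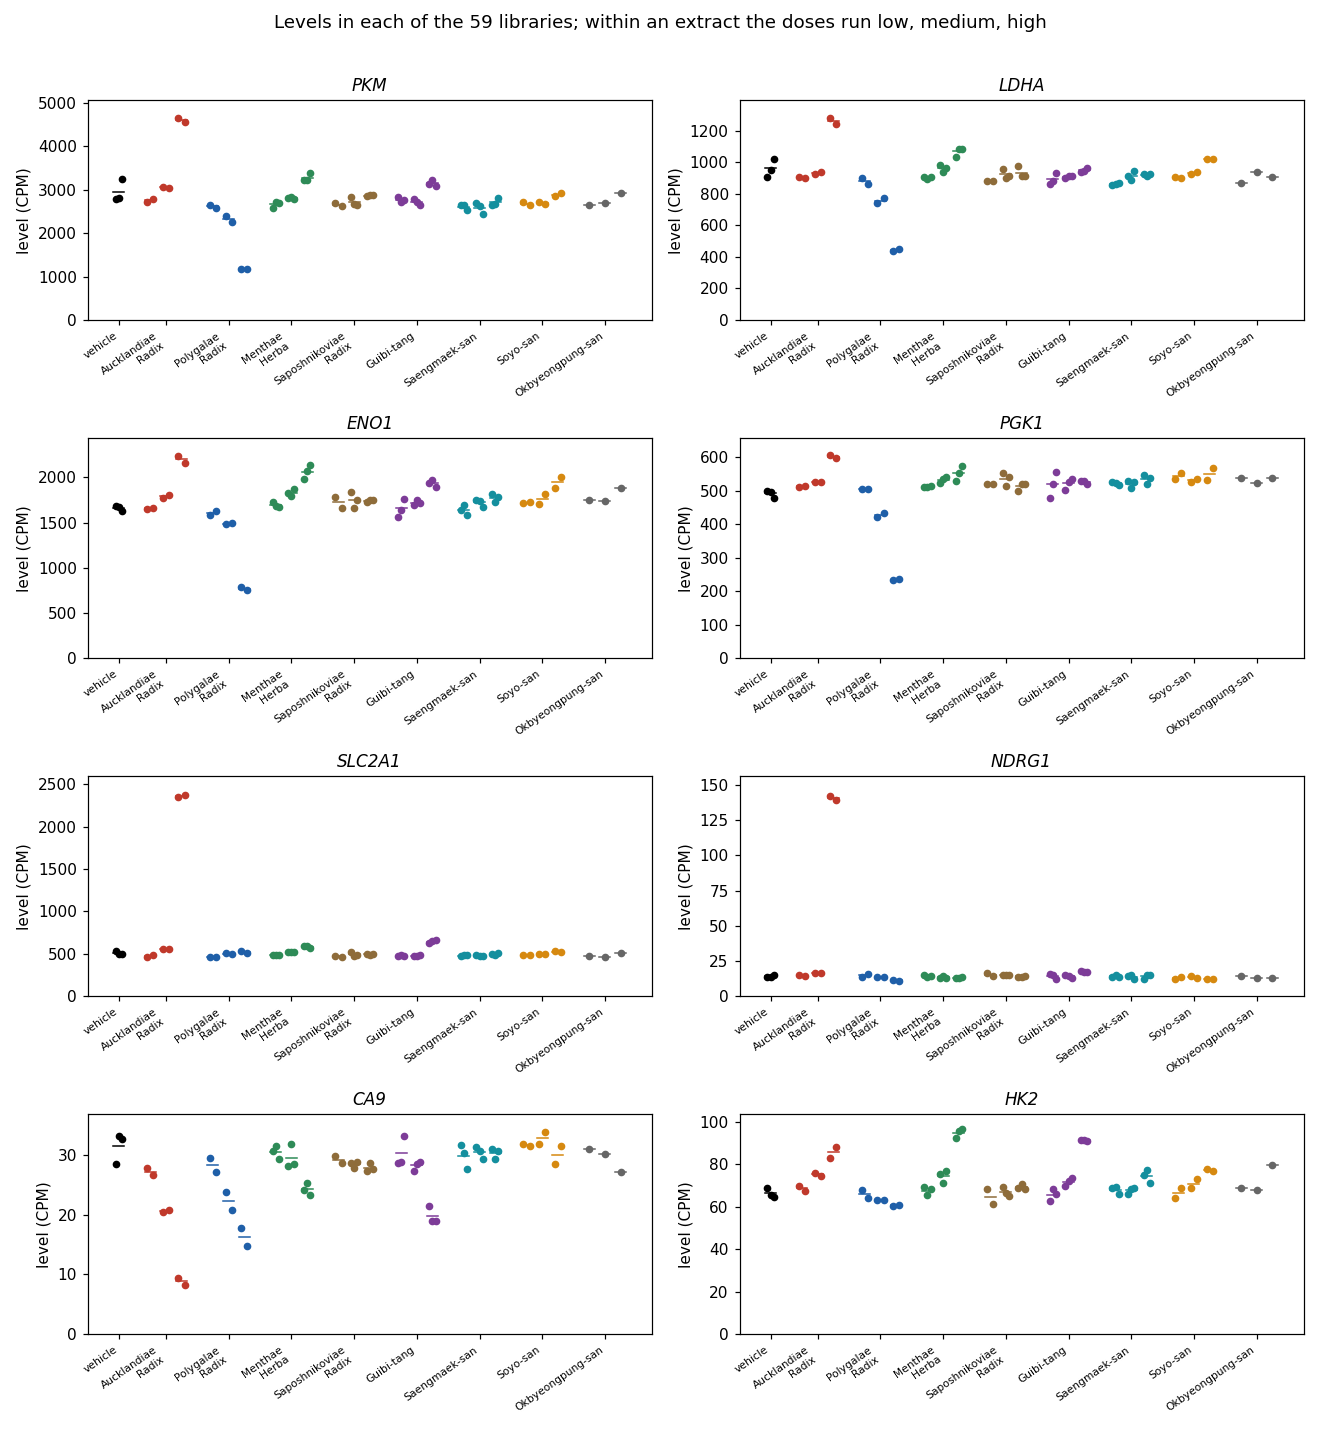
Level (CPM) of 8 genes in each of the 59 libraries, by extract and dose (across, low to high within each extract, vehicle apart); each point is 1 library. SLC2A1 and NDRG1 stand apart only in the 2 high-dose Aucklandiae Radix libraries, at 2353 and 2375 CPM for SLC2A1, whereas PKM, LDHA, ENO1 and PGK1 are lowest in the 2 high-dose Polygalae Radix libraries.

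The enzymes showed smaller changes with high-dose Aucklandiae Radix, and their isozymes moved apart. Phosphofructokinase, which commits sugar to glycolysis, is made from platelet-type (PFKP), liver-type (PFKL) and muscle-type (PFKM) subunits. PFKP had 138, 142.6 and 138.2 CPM in vehicle, 134.2 and 136.8 CPM at the low dose, 165.7 and 168 CPM at the medium dose and 347.3 and 352.6 CPM at the high dose. PFKL had 45 and 47.8 CPM at the high dose, against 89.5, 87.7 and 86.7 CPM in vehicle. The high-dose libraries were the highest of all 59 for PFKP and the lowest of all for PFKL. The log2 change against vehicle was 1.33 ± 0.05 for PFKP (adjusted p = 2.72e-26), -0.92 ± 0.06 for PFKL (adjusted p = 7.03e-18) and 0.23 ± 0.05 for PFKM (adjusted p = 7.33e-05).

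Per kilobase, PFKP made up 60.7% ± 0.849 of the summed phosphofructokinase level in vehicle (SD, n = 3), 59.6% ± 0.93 at the low dose, 64.7% ± 0.19 at the medium dose and 82.3% ± 0.465 at the high dose (SD, n = 2 each). The union of annotated exons was 4836 bases for PFKP and 8926 bases for PFKL. The size of a share depends on these lengths, which are the same in all groups. The share of PFKL was 5.91% ± 0.156 at the high dose and 20.7% ± 0.321 in vehicle. Lactate dehydrogenase moved likewise: LDHA, the form associated with lactate production, rose by 0.39 ± 0.04 on the log2 scale (adjusted p = 3.91e-12) and LDHB fell by 0.40 (SE 0.05, adjusted p = 8.38e-09). The LDHA share of LDHA and LDHB per kilobase was 57% ± 0.277 at the high dose and 43.3% ± 1.98 in vehicle. The lengths used were 6210 bases for LDHA and 2983 bases for LDHB. Before division by length LDHA was above LDHB in vehicle, at 907.8, 952.3 and 1022 CPM, against 609.6, 616.6 and 588.4 CPM.

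ALDOC, the brain-type aldolase, was the other enzyme past 2-fold. It had 32.9 and 34.5 CPM at the high dose, against 15.5, 15.1 and 13.7 CPM in vehicle and 13.9 and 15.1 CPM at the low dose (log2 change against vehicle 1.19 ± 0.07, adjusted p = 3.59e-19). ALDOA, per kilobase still the main aldolase, rose by 0.45 ± 0.05. PKM had 4642 and 4558 CPM, against 2795, 2810 and 3252 CPM in vehicle, and rose by 0.64 ± 0.04 (adjusted p = 1.5e-16); gene-level counts do not separate its splice forms. ENO2, the neuronal-type enolase, rose by 0.82 ± 0.06, HK1 by 0.52 ± 0.04, ENO1 by 0.41 ± 0.04 and HK2 by 0.37 ± 0.05. GPI, which isomerises glucose-6-phosphate, fell by 0.24 (SE 0.04, adjusted p = 4.36e-06). GAPDH, often used as a reference transcript, had 3368 and 3246 CPM, inside the vehicle values of 3106, 3272 and 3738 CPM (log2 change -0.03 ± 0.06, adjusted p = 0.686). TPI1 is the single call that depended on 1 library, with a change of 0.11 ± 0.04 (adjusted p = 0.0346) and an adjusted p of 0.274 without high-dose replicate 2, 0.123 without vehicle replicate 1 and 0.0763 without vehicle replicate 2.

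The picture against the low dose of Aucklandiae Radix, whose libraries share a library set with the high dose, was similar, with 35 of 36 genes called, against 58.7% of all genes tested (29.6% higher and 29.2% lower). The enzymes divided into 14 that rose and 3 that fell (median 0.32), the carriers and regulators into 4 that rose and none that fell (median 1.10), and the HIF-type genes into 12 that rose and 2 that fell (median 1.14). Leaving out 1 library lost 4 of the 35 calls, those of ANKRD37, GAPDH, MXI1 and PFKM. A library set here is the first field of the library name, and the labels do not say what that field stands for. The vehicle libraries have a first field of their own, so extract and set cannot be told apart in any comparison against vehicle. Low-dose and high-dose libraries of the same extract share theirs, so the comparison between them does not cross sets. Mitochondrial genes held 6.19% to 6.52% of counts at the high dose and 9.46% to 12.3% in vehicle. The 3 endothelial markers summed to 8.29 and 8.72 CPM at the high dose, against 1.35 to 1.52 CPM in vehicle and at most 2.1 CPM in any library outside the high dose. Most of that sum was PECAM1, at 7.96 and 8.33 CPM; CDH5 was at 0 in both high-dose libraries and VWF at 0.329 and 0.391 CPM. Blood cell markers summed to 6.46 and 9.98 CPM, against 5.35 to 5.53 CPM in vehicle, and fibroblast markers to 2.88 and 3.515 CPM, against 2.03 to 3.01 CPM in vehicle. The part of the mitochondrial share and of these markers in the results was not tested. Both high-dose libraries were above all other 57 libraries for 9 enzymes, 4 carriers and regulators and 11 HIF-type genes, where 22.4% of all tested genes were, and below them for PFKL, BNIP3 and CA9, where 18.7% of all tested genes were. With the outlying library in the fit, 28 genes were called against vehicle and 26 against the low dose.

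**Figure D3:**
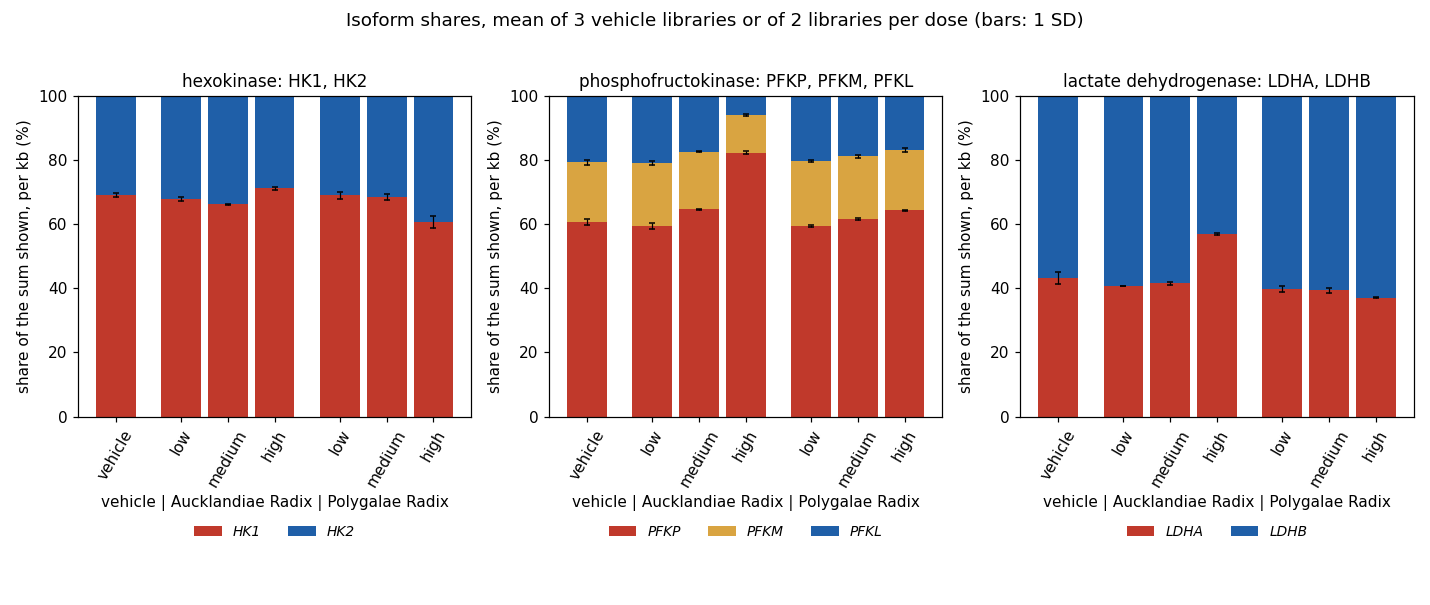
Share of each isozyme in the sum of the isozymes shown (percent of summed CPM per kb; means with SD bars) for HK1 and HK2, the 3 phosphofructokinases, and LDHA and LDHB in the doses of Aucklandiae Radix and Polygalae Radix and in vehicle. PFKP reaches 82.3% with high-dose Aucklandiae Radix, against 60.7% in vehicle, and HK2 reaches 39.3% with high-dose Polygalae Radix, against 31% in vehicle.

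High-dose Polygalae Radix lowered nearly the whole enzyme chain and left the glucose and lactate carriers close to vehicle. Of the 17 enzymes 16 fell and 1, ENO2, rose (median log2 change -0.67). Of 5 carriers and regulators 2 rose and none fell (median 0.12), and of 14 HIF-type genes 2 rose and 5 fell (median -0.08). In all, 26 of 36 genes were called, against 36.5% of all genes tested (16.8% higher and 19.6% lower), and the median change of all genes was -0.01. The 5 genes past 2-fold were all enzymes that fell, against 1.71% of all genes falling that far.

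PKM, which makes pyruvate in the last step, fell most. It had 2795, 2810 and 3252 CPM in vehicle, 2654 and 2575 CPM with low-dose Polygalae Radix, 2388 and 2254 CPM at the medium dose and 1167 and 1165 CPM at the high dose. Each dose group lay below the one before it, and no library outside the high dose was under 2254 CPM. The step from vehicle to low dose was not particular to Polygalae Radix. At the low dose PKM was below vehicle with all 7 tested extracts (log2 change -0.18 to -0.09, 5 called). The log2 change was -1.34 ± 0.05 against vehicle, a 2.53-fold fall (adjusted p = 9.57e-26), and -1.16 ± 0.05 against the low dose (adjusted p = 1.74e-22).

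LDHA had 907.8, 952.3 and 1022 CPM in vehicle, 901.2 and 860.6 CPM at the low dose, 740.5 and 770.3 CPM at the medium dose and 438.5 and 450.4 CPM at the high dose. At the low dose LDHA too was below vehicle with all 7 tested extracts (log2 change -0.16 to -0.09, 4 called). ENO1, which makes phosphoenolpyruvate, had 784.1 and 753.2 CPM at the high dose, against 1681, 1669 and 1626 CPM in vehicle and 1586 and 1628 CPM at the low dose. PGK1, the first ATP-yielding enzyme of the chain, had 231.6 and 236.1 CPM at the high dose, against 500.2, 495.8 and 479.2 CPM in vehicle and 506.1 and 505.7 CPM at the low dose. For these 3 genes, whose promoters are printed above, both high-dose libraries were below all other libraries. Against the low dose the log2 change was -0.99 ± 0.04 for LDHA (adjusted p = 2.46e-22), -1.06 ± 0.05 for ENO1 (adjusted p = 5.4e-22) and -1.11 ± 0.05 for PGK1 (adjusted p = 4.74e-23). GPI had 387.7 and 371.3 CPM at the high dose, against 787, 734.9 and 822.1 CPM in vehicle and 737.3 and 713.1 CPM at the low dose, and fell by 1.04 against vehicle on the log2 scale (SE 0.04, adjusted p = 4.28e-23).

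Falls under 2-fold were called for ALDOA (-0.87 ± 0.05), GAPDH (-0.86 ± 0.06), LDHB (-0.74 ± 0.05), PFKL (-0.67 ± 0.06), HK1 (-0.65 ± 0.05), TPI1 (-0.56 ± 0.05), ALDOC (-0.43 ± 0.08), PFKM (-0.35 ± 0.05), PFKP (-0.28 ± 0.05), PGAM1 (-0.22 ± 0.04) and HK2 (-0.13 ± 0.05). The call on HK2, the hexokinase bound to mitochondria in many tumours, was the weakest of these (adjusted p = 0.0306), and it was lost without high-dose replicate 2, without replicate 3 or without vehicle replicate 1, with adjusted p from 0.126 to 0.164. Summed over the 17 enzymes, the level was 13610 ± 694 CPM in vehicle (SD, n = 3), 12380 ± 68 CPM at the low dose, 11750 ± 412 CPM at the medium dose and 7034 ± 203 CPM at the high dose (SD, n = 2 each). The low-dose mean of every extract was below the vehicle mean, from 12380 CPM here to 12930 CPM in the 1 Okbyeongpung-san library. The 2 high-dose Polygalae Radix libraries were below all other 57 libraries for 14 of 17 enzymes, where 6.25% of all tested genes were. The exceptions were PFKL, ALDOC and ENO2.

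Hexokinase and enolase also differed in composition from vehicle. Of the sum of HK1 and HK2 per kilobase, without HKDC1 and the other hexokinases, HK2 made up 39.3% ± 1.89 at the high dose (SD, n = 2) and 31% ± 0.655 in vehicle (SD, n = 3). ENO2 had 21.4 and 21.5 CPM at the high dose, against 18.3, 16.1 and 16.5 CPM in vehicle, and rose by 0.33 ± 0.07 (adjusted p = 8.82e-05) and, against the low dose, by 0.51 ± 0.08 (adjusted p = 7.86e-07). With ENO1 lower, the ENO2 share of ENO1 and ENO2 was 3.32% ± 0.104 at the high dose and 1.25% ± 0.0759 in vehicle. The LDHA share of LDHA and LDHB was 37.1% ± 0.0588 at the high dose and 43.3% ± 1.98 in vehicle.

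Upstream and downstream carriers did not follow the enzymes with Polygalae Radix. SLC2A1 had 531.3 and 507.6 CPM at the high dose, against 529.5, 493.3 and 491.3 CPM in vehicle, and its groups overlapped. The log2 difference was 0.04 with a 95% interval from -0.03 to 0.11 (adjusted p = 0.384). For SLC16A3 the difference was 0.12 with an interval from -0.02 to 0.26 (adjusted p = 0.185). Against the low dose both rose slightly, SLC2A1 by 0.17 ± 0.04 (adjusted p = 0.000419) and SLC16A3 by 0.29 ± 0.08 (adjusted p = 0.00348), the second of which was lost without high-dose replicate 2 (adjusted p = 0.38). PFKFB3 had 46.1 and 42.4 CPM at the high dose, against 35.4, 33 and 32.3 CPM in vehicle, and rose by 0.40 ± 0.05 (adjusted p = 2.76e-08).

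HIF-type genes were mixed with high-dose Polygalae Radix. CA9 had 28.5, 33.3 and 32.8 CPM in vehicle, 29.5 and 27.2 CPM at the low dose, 23.8 and 20.9 CPM at the medium dose and 17.9 and 14.8 CPM at the high dose. The 3 dose groups did not overlap, and the log2 change at the high dose was -0.95 ± 0.08 against vehicle (adjusted p = 3.25e-13) and -0.80 ± 0.09 against the low dose (adjusted p = 8.01e-10). P4HA2 fell by 0.42 (SE 0.08), P4HA1 by 0.34 (SE 0.06), BNIP3L by 0.33 (SE 0.11) and NDRG1 by 0.30 (SE 0.10), while EGLN1 rose by 0.28 ± 0.07 and BNIP3 by 0.43 ± 0.15. The pseudogene limit of BNIP3 applies here too. Gene and pseudogenes summed to 7.58 ± 0.879 CPM (SD, n = 2), against 4.99 ± 0.632 CPM in vehicle (SD, n = 3). The NDRG1 call (adjusted p = 0.0106) was lost without high-dose replicate 3 (adjusted p = 0.177) or vehicle replicate 3 (0.0707), and the BNIP3 call (adjusted p = 0.0222) without high-dose replicate 3 (0.305), vehicle replicate 2 (0.051) or vehicle replicate 3 (0.0872). BNIP3L lost its call (adjusted p = 0.0123) without high-dose replicate 2 (0.129). HIF1A had 119.8 and 134.7 CPM at the high dose, against 102.1, 117.7 and 113.8 CPM in vehicle (log2 difference 0.20 ± 0.09, adjusted p = 0.0753), and 128.5 and 125.3 CPM at the low dose (log2 difference 0.00 ± 0.10, adjusted p = 0.985).

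Against the low dose of Polygalae Radix, from the same library set, 26 of 36 genes were called, against 29.4% of all genes tested (13.3% higher and 16% lower). Of the enzymes 15 fell and 1 rose (median -0.63), 3 carriers and regulators rose, and 2 HIF-type genes rose while 5 fell. Leaving out 1 library lost 7 of the 26 calls, those of EGLN1, NDRG1, P4HA1, P4HA2, PFKP, PGAM1 and SLC16A3. ADM, the member that rose most, had 4.36 and 4.21 CPM at the high dose and 2.7 and 2.11 CPM at the low dose (log2 change 0.83 ± 0.18, adjusted p = 0.000238). Epithelial markers summed to 7692 and 8573 CPM with high-dose Polygalae Radix, against 12910 to 15400 CPM in vehicle, with fibroblast, blood and endothelial markers in the low range given above; the part of this in the enzyme result was not tested. With the outlying library in the fit, 13 genes were called against vehicle and 16 against the low dose. The calls against vehicle that were lost were those of 5 enzymes that fell (HK2, PFKM, PFKP, PGAM1 and TPI1), ENO2, PFKFB3, PDK1, EGLN1, P4HA2, NDRG1, BNIP3 and BNIP3L.

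**Figure D4:**
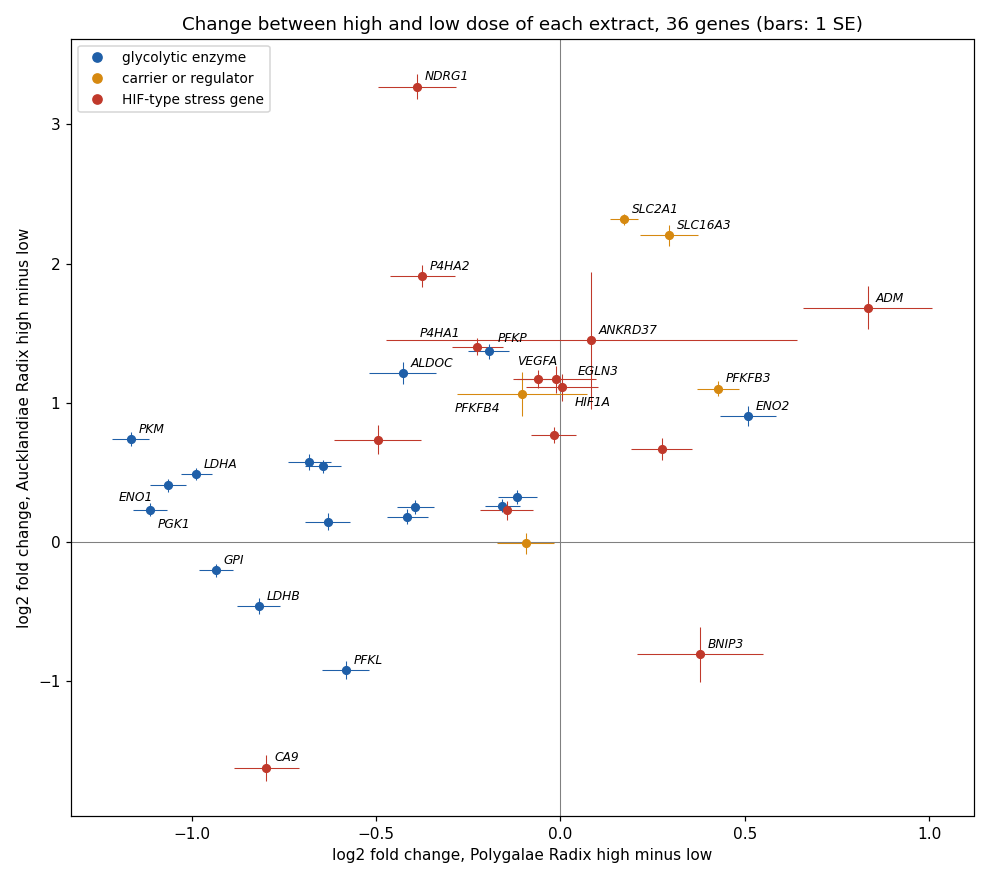
Log2 change between high and low dose for each tested gene with Polygalae Radix (across) and Aucklandiae Radix (up); bars are ±1 SE and colours give the role. The enzymes lie left of the vertical 0 line except ENO2, down to -1.16 for PKM, and most carriers and HIF-type genes lie above the horizontal one, up to 3.27 for NDRG1, with CA9 and BNIP3 below it.

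A direct comparison of the extracts at their high doses, 380 µg/mL of Polygalae Radix and 370 µg/mL of Aucklandiae Radix, called 35 of 36 genes, against 58.3% of all genes tested (28.9% higher and 29.4% lower). With Polygalae Radix 32 of the genes were lower and 3 higher, and 20 were lower by at least 2-fold, against 8.17% of all genes. The enzymes had a median log2 difference of -0.83 (16 lower, 1 higher), the carriers and regulators -1.08 (4 lower) and the HIF-type genes -1.11 (12 lower, 2 higher), while the median of all genes was 0.03. The largest difference was that of NDRG1, at -3.64 ± 0.09 (adjusted p = 1.4e-31), and the largest among enzymes that of PKM, at -1.98 ± 0.05 (adjusted p = 2.18e-31). The 3 genes higher with Polygalae Radix were BNIP3 (1.48 ± 0.19), CA9 (0.88 ± 0.10) and PFKL (0.26 ± 0.07), the first with the pseudogene limit given above. The sum of BNIP3 and its pseudogenes was 7.58 ± 0.879 CPM with Polygalae Radix and 7.13 ± 0.476 CPM with Aucklandiae Radix (SD, n = 2 each). PDK1 was not called (log2 difference -0.08 ± 0.08, adjusted p = 0.411). The PFKL call was lost without high-dose Polygalae Radix replicate 2 (adjusted p = 0.0552), and ANKRD37 (-1.19 ± 0.49) without that library (0.259) or high-dose Aucklandiae Radix replicate 2 (0.457). With the outlying library in the fit, 27 of the 35 calls remained.

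High-dose Guibi-tang and Menthae Herba both raised HK2, PFKP and SLC2A1, and Menthae Herba raised most of the enzymes, with no member past 2-fold, against 1.93% and 1.56% of all genes. Guibi-tang called 21 of 36 genes against vehicle, where 29.4% of all genes were called (14.7% in each direction): 6 enzymes rose and 4 fell, 2 carriers and regulators rose and 1 fell, and 5 HIF-type genes rose and 3 fell. Leaving out 1 library lost 10 of those 21 calls, among them the rises of EGLN1, HIF1A and P4HA1 and the calls of ALDOC, GAPDH, LDHB, PGK1, TPI1, PFKFB4 and BNIP3L (adjusted p from 0.0516 to 0.514). Without Guibi-tang high-dose replicate 3, 14 members were called. Menthae Herba called 19 of 36, where 28.2% of all genes were called (13.7% higher and 14.5% lower): 12 enzymes rose and 1 fell, 3 carriers and regulators rose, and 2 HIF-type genes rose and 1 fell. There 5 calls, those of ALDOA, TPI1, PKM, HIF1A and KDM3A, were lost without 1 library (adjusted p from 0.0557 to 0.28). HK2 had 91.4, 91.5 and 91.2 CPM with Guibi-tang, against 68.7, 65.5 and 64.8 CPM in vehicle (log2 change 0.46 ± 0.04, adjusted p = 5.72e-12). Menthae Herba gave HK2 92.4, 95.6 and 96.9 CPM, the highest of any group (log2 change 0.52 ± 0.04, adjusted p = 2.29e-13). Each extract library lay above each vehicle library.

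PFKP rose as well, by 0.41 ± 0.04 with Guibi-tang (adjusted p = 1.07e-09) and 0.40 ± 0.04 with Menthae Herba (adjusted p = 2.82e-09). For SLC2A1 the libraries had 624.9, 646.5 and 657.3 CPM with Guibi-tang, against 529.5, 493.3 and 491.3 CPM in vehicle (log2 change 0.35 ± 0.03, adjusted p = 5.72e-12), and the change with Menthae Herba was 0.20 ± 0.03 (adjusted p = 2.9e-06). SLC16A3 rose by 0.41 ± 0.06 with Guibi-tang (adjusted p = 2.19e-06). With Guibi-tang the HIF-type genes went in both directions, NDRG1 and P4HA2 rising by 0.31 ± 0.08 and 0.28 ± 0.07 and CA9, BNIP3L and VEGFA falling by 0.67 (SE 0.07), 0.32 (SE 0.09) and 0.26 (SE 0.06). The BNIP3L call (adjusted p = 0.00875) was lost without Guibi-tang high-dose replicate 2 (adjusted p = 0.0808). Menthae Herba lowered CA9 by 0.37 (SE 0.07, adjusted p = 2.13e-05) and ALDOC by 0.41 (SE 0.07, adjusted p = 1.49e-05) and raised ENO1 by 0.32 ± 0.04 (adjusted p = 1.91e-08).

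Within their own library sets the same extracts called 14 genes (Guibi-tang, high against low, against 17.9% of all genes) and 21 genes (Menthae Herba, against 23.5% of all genes, 12% higher and 11.6% lower). With Guibi-tang the largest were SLC16A3 at 0.55 ± 0.06, PFKP at 0.51 ± 0.04, HK2 at 0.48 ± 0.04, SLC2A1 at 0.43 ± 0.03 and CA9 at -0.61 ± 0.07. With Menthae Herba 15 of 17 enzymes rose and ALDOC fell (median 0.23), and the largest were HK2 at 0.49 ± 0.04 and PFKP at 0.40 ± 0.04. Leaving out 1 library lost 2 of the 14 Guibi-tang calls (ALDOA and NDRG1). It lost 5 of the 21 Menthae Herba calls (ADM, HK1, LDHB, PFKFB4 and PGK1). With the outlying library in the fit, 4 calls against vehicle were left for Guibi-tang (PFKP, SLC16A3, NDRG1 and CA9) and 3 for Menthae Herba (PFKP, ALDOC and PGK1).

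The remaining extracts moved the gene set little. At the high dose 9 genes were called with Soyo-san against 17.7% of all genes (8.44% higher and 9.22% lower), 6 with Saengmaek-san against 12% and 4 with Saposhnikoviae Radix against 10.2%, with log2 changes between -0.44 and 0.31. With Soyo-san 7 enzymes rose and ALDOC fell (-0.44 ± 0.08, adjusted p = 0.000133), and ENO1 and HK2 rose by 0.23 ± 0.04 and 0.22 ± 0.05. Saengmaek-san raised LDHB by 0.24 ± 0.05 (adjusted p = 0.000616). Between high and low dose, 5 genes were called with Soyo-san (2.49% of all genes), 1 with Saengmaek-san (0.854%) and 0 with Saposhnikoviae Radix (0.289%) in edgeR's test. The 5 Soyo-san calls were those of HK2, GPI, ENO1 and LDHA, which rose by 0.17 to 0.21 on the log2 scale, and ALDOC, which fell by 0.43. Each was lost without at least 1 of the 4 libraries, ALDOC without high-dose replicate 1 (adjusted p = 0.0571) and the others with adjusted p up to 0.289. The Saengmaek-san call was LDHB (log2 change 0.19), lost without any 1 of its 6 libraries (adjusted p 0.0744 to 0.157). Okbyeongpung-san had 1 library per dose and allows no test. At its high dose no member differed from the vehicle mean by 2-fold, against 4.87% of all genes, and the log2 differences ran from -0.87 for ANKRD37 to 0.26 for HK2.

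Medium doses called fewer genes against vehicle. Polygalae Radix called 11 genes (10.2% of all genes) and Aucklandiae Radix 7 (13.6%). The counts were 6 with Menthae Herba (10.1%), 5 with Guibi-tang (11%), 5 with Saengmaek-san (11.4%), 3 with Soyo-san (8.55%) and 2 with Saposhnikoviae Radix (3.69%). Polygalae Radix at the medium dose already lowered LDHA by 0.35 (SE 0.04, adjusted p = 1.65e-08), PKM by 0.35 (SE 0.05, adjusted p = 4.72e-07) and CA9 by 0.49 (SE 0.08, adjusted p = 9.58e-06), and these calls held without any 1 library. With medium-dose Aucklandiae Radix SLC2A1 rose by 0.14 ± 0.03 (adjusted p = 0.00496), a call lost without medium-dose replicate 2 (0.0879). HIF1A rose there by 0.31 ± 0.09 (adjusted p = 0.0119), a call lost without medium-dose replicate 2 (0.15), replicate 3 (0.0518) or vehicle replicate 1 (0.0676).

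Low doses called 8 genes with Polygalae Radix (9.98% of all genes), 8 with Saengmaek-san (18%), 5 with Saposhnikoviae Radix (11.5%), 4 with Menthae Herba (9.45%), 4 with Soyo-san (9.8%), 2 with Guibi-tang (6.05%) and 1 with Aucklandiae Radix (4.97%). PDK1 was among them in every extract, but in 5 of the 7 its call was lost without 1 library (adjusted p from 0.055 to 0.214). All 8 calls of low-dose Polygalae Radix, the falls of PKM and LDHA among them, were lost without low-dose replicate 2 (adjusted p from 0.0612 for PKM to 0.214 for PDK1).

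PDK1, the kinase that shuts the pyruvate dehydrogenase gate into mitochondria and a textbook HIF target, was above vehicle in all 21 comparisons. The 56 extract libraries had a median of 25.8 CPM and a range of 21.7 to 29 CPM, against 20.8, 22.7 and 21.1 CPM in vehicle, and 54 of them were above the highest vehicle library. Its log2 difference from vehicle was between 0.11 and 0.33 in 21 comparisons and was called in 19, all of which share the same 3 vehicle libraries. Of the 19 calls 10 were lost when 1 library was left out (adjusted p from 0.055 to 0.386), 3 of them without vehicle replicate 1, 5 without vehicle replicate 3 and 9 without 1 of the extract's own libraries. With the outlying library in the fit all 19 were lost (adjusted p from 0.101). With high-dose Polygalae Radix the call (0.18 ± 0.07, adjusted p = 0.0381) was lost without high-dose replicate 3 (0.386), vehicle replicate 1 (0.118) or vehicle replicate 3 (0.0924). Between high and low doses the difference was -0.11 to -0.004 and 0 of 7 were called. Other members also differed from vehicle mostly in 1 direction. HIF1A, KDM3A, EGLN1 and PFKM were above vehicle in 20 of 21 comparisons, with 5, 4, 3 and 6 called higher. GAPDH, TPI1 and PKM were above vehicle in only 1, 2 and 4 of 21, with 8, 9 and 10 called lower. Vehicle libraries form a set of their own, so extract and library set cannot be told apart for PDK1 or for these genes.

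**Figure D5:**
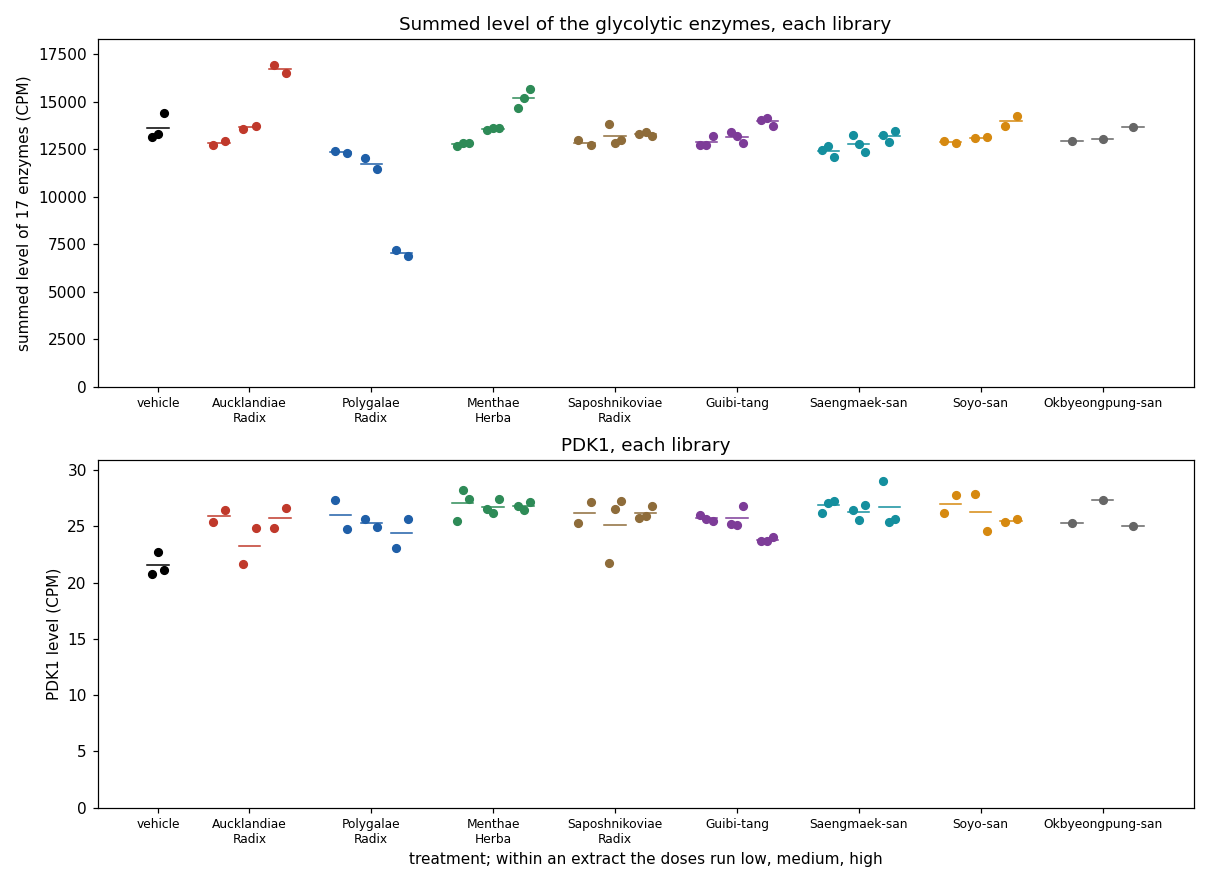
Summed level of the 17 glycolytic enzymes (CPM) and level of PDK1 (CPM) in each library by extract and dose, with vehicle apart. The enzyme sum is lowest with high-dose Polygalae Radix, at 6891 and 7178 CPM, and highest with high-dose Aucklandiae Radix, at 16510 and 16940 CPM, while PDK1 is lowest in vehicle.

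Other genes of the pathways gave a wider view. Of 31 tested genes among 41 other glycolysis and pyruvate genes, 7 rose and 12 fell with high-dose Aucklandiae Radix, where 31% of all genes rose and 31% fell, and 5 rose and 15 fell with high-dose Polygalae Radix, where 16.8% of all genes rose and 19.6% fell. Past 2-fold with Aucklandiae Radix, the hexokinase-like gene HKDC1 had a mean of 84.5 CPM, against 25.1 CPM in vehicle (log2 change 1.75 ± 0.06, adjusted p = 1.11e-28). The gluconeogenic enzyme FBP1 had 20.8 CPM, against 66.5 CPM in vehicle (log2 change -1.67 ± 0.06). TXNIP, a glucose-responsive inhibitor of glucose uptake, had 11.6 CPM, against 54.5 CPM in vehicle (log2 change -2.22 ± 0.10). With Polygalae Radix PGM1, which links glycogen to glycolysis, had 12.8 CPM, against 25.8 CPM in vehicle (log2 change -1.01 ± 0.08).

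Of 40 tested genes among 46 other HIF pathway genes, 23 rose and 9 fell with high-dose Aucklandiae Radix, and 12 rose and 10 fell with high-dose Polygalae Radix, against the same shares of all genes. With Aucklandiae Radix BHLHE40, a circadian and hypoxia repressor, had 40.4 CPM, against 8.16 CPM in vehicle (log2 change 2.31 ± 0.09). EPAS1, the HIF-2 alpha subunit, had 111.5 CPM, against 40.2 CPM in vehicle (log2 change 1.47). DDIT4, an inhibitor of mTOR signalling, had 36.7 CPM, against 11.4 CPM in vehicle (log2 change 1.68). The lipase inhibitor ANGPTL4 rose by 3.02 on the log2 scale, with means of 1.05 CPM and 0.129 CPM in vehicle. PPFIA4 had 0.716 CPM, against 0.135 CPM in vehicle (log2 change 2.36), the glycogen branching enzyme GBE1 15.5 CPM, against 7.11 CPM (log2 change 1.12), and the sterol regulator INSIG2 44.4 CPM, against 22.1 CPM (log2 change 1.01).

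The gene of this list that fell most with both extracts was STC1, which encodes the secreted glycoprotein stanniocalcin 1. It had a count of 0 in both high-dose Aucklandiae Radix libraries, against counts of 17, 10 and 14 in vehicle (adjusted p = 1.11e-05). With a floor of 3 counts per library it was at least 3.54-fold lower than in vehicle. Counts were 2 and 0 with high-dose Polygalae Radix (adjusted p = 0.00129), 3, 1 and 0 with Menthae Herba (adjusted p = 0.000237), 2, 1 and 1 with Guibi-tang (adjusted p = 0.00109) and 1 and 6 with Soyo-san (adjusted p = 0.0491). Every one of these libraries lay below the vehicle libraries, at counts too low for a firm fold.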

How the data were processed

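The submitters' processing notes name FastQC 0.11.9, Trim Galore 0.6.5, STAR 2.7.3a, RSEM 1.3.3 and the build GRCh38 (hg38), without their roles; the values the authors deposited, 1 column per library and not all whole, are read here to be RSEM's expected counts per gene. Neither an annotation release nor a strand setting for RSEM is named in the sources used here. Per the labels' protocols, the libraries were directional mRNA libraries read as 100 bp pairs. In all, 24 of the 37 genes overlap a gene on the opposite strand, so reads of such pairs may not be told apart, and 17 have named pseudogenes in the table. Some members also overlap a gene on their own strand, such as ENO2 with LRRC23, PGK1 with ATP7A and PFKFB4 with UCN2. Strand does not separate the reads of those pairs. Overlap here is between whole gene spans, not exons.

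Of the deposited expected counts 10% were not whole, and all were rounded. Genes were filtered with filterByExpr by group (16978 kept), scaled by TMM and fitted together for 56 libraries in 22 groups with edgeR 4.0.16 (R 4.3.3; quasi-likelihood test, 34 residual degrees of freedom, no covariate). Genes were called at a Benjamini-Hochberg adjusted p below 0.05 over all genes kept, and the SE is the log2 change divided by the root of F. Levels are CPM on TMM-scaled totals. For shares and levels between genes they were also divided by the union length of all annotated exons of a gene. That length can exceed the length of the transcripts made. The 3 Okbyeongpung-san libraries have levels only, and the outlying library was left out by the rule of the gene set. A wortmannin control named in the series' text was not analysed here. No pair of replicates agreed within sampling noise (lowest chi-square per degree of freedom 2.09). The procedure was checked on simulated data. Alternatives were no filter on low counts, RLE size factors, DESeq2 1.42.0, a replicate block, the outlying library in the fit and leaving out each library.

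All 37 genes may be named. Values in every library are given for members called with a change of at least 2-fold in a comparison of the high dose with vehicle or with the low dose, and other pathway genes are named past 2-fold, except for 1 that is not reported here. The members, lists and comparisons were chosen with earlier results of these data known.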

Additional observations from a re-analysis of the deposited data

Results flagged for a closer look

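One library that entered no comparison, low-dose Saposhnikoviae Radix replicate 2, held levels of several of these genes outside the vehicle range. On its own scaling PFKL stood at 221 CPM there, against 85.7 to 88.9 CPM in the 3 vehicle libraries. TPI1 stood at 3470 CPM, against 697.9 to 742.1 CPM in vehicle, and ENO1 at 3400 CPM, against 1607 to 1670 CPM in vehicle. SLC2A3, the glucose transporter nearly absent elsewhere, stood at 0.25 CPM, against 0 to 0.0274 CPM in vehicle, on a count of 3, against 0 to 1. These 4 genes were at least 2-fold above the highest vehicle library, where 22.6% of all tested genes were. SLC2A3 is 1 of the 4 but did not pass the filter, so that share does not cover it. Rises of this size in this library were not particular to the members. In the other direction 12 genes were at most 1/2 of the lowest vehicle library, where 29% of all tested genes were, among them HIF1A at 5.91 CPM, against 101.4 to 116.7 CPM, the demethylase KDM3A at 3.42 CPM, against 32.8 to 36 CPM, and HK2 at 11.8 CPM, against 64 to 68.3 CPM. The library's mitochondrial share of counts and its correlation with its group-mates are also outside the range of the rest, and the part of either in these levels was not tested.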

How the results depend on the processing

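The processing was varied for 327 calls of members over 28 comparisons. A replicate block moved no call (327 of 327 kept), nor did a replicate block within the library set (102 of 102). The replicate numbers do not pair the libraries: correlations of same-numbered libraries' deviations ran from -0.0854 to 0.113. Under the replicate block the members called became 2 in place of 1 for low-dose Aucklandiae Radix against vehicle, and 2 in place of 1 for high against low Saengmaek-san, also 2 with the block within the set. DESeq2 lost 6 calls, RLE size factors 7 and no filter on low counts 49. DESeq2 moved the members called to 12 for medium Aucklandiae Radix, 3 for low Aucklandiae Radix, 8 for medium Saengmaek-san, 5 for medium Soyo-san and 4 for low Guibi-tang against vehicle, and 2 for high against low Saengmaek-san. RLE gave 1 for low Guibi-tang. No filter gave 3 for high Saengmaek-san, 0 for medium Saposhnikoviae Radix, 2 for medium Guibi-tang, 3 for low Aucklandiae Radix and 2 for low Soyo-san against vehicle, and 1 for high against low Soyo-san; it tests more genes.

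The outlying library in the fit lost 194 of the 327 calls and turned 1 round: TPI1 with low-dose Saposhnikoviae Radix, the group it belongs to, was 1.13 on the log2 scale against -0.17 without it. Members called against vehicle at the high dose became 13 for Polygalae Radix, 4 for Guibi-tang, 0 for Saengmaek-san, 3 for Menthae Herba, 1 for Soyo-san and 1 for Saposhnikoviae Radix. At the medium dose they became 1 for both Aucklandiae Radix and Polygalae Radix and 0 for Menthae Herba, Saposhnikoviae Radix, Guibi-tang, Saengmaek-san and Soyo-san. At the low dose they became 9 for Saposhnikoviae Radix and 0 for the other 6 extracts. Between high and low dose they became 16 for Polygalae Radix, 9 for Saposhnikoviae Radix, 5 for Guibi-tang, 4 for Menthae Herba and 0 for Saengmaek-san and Soyo-san. Over all genes, high-dose Polygalae Radix called 1875 in place of 6192. The cause was not tested.

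Leaving out 1 library at a time lost 287 of 1652 refitted calls. The members called ranged from 33 to 35 for high Aucklandiae Radix and 23 to 26 for high Polygalae Radix against vehicle, and from 33 to 34 and 22 to 25 against their low doses. Ranges that moved, against vehicle, were 3 to 7 for high Saengmaek-san and 3 to 9 for high Soyo-san. At the medium dose they were 2 to 8 for Aucklandiae Radix, 7 to 11 for Polygalae Radix, 2 to 6 for Guibi-tang, 1 to 6 for Menthae Herba, 0 to 4 for Saposhnikoviae Radix, 1 to 7 for Saengmaek-san and 1 to 5 for Soyo-san. At the low dose they were 0 to 5 for Aucklandiae Radix, 0 to 10 for Polygalae Radix, 0 to 5 for Guibi-tang, 1 to 7 for Menthae Herba, 0 to 6 for Saposhnikoviae Radix and 0 to 5 for Soyo-san. Between high and low dose they were 0 for Saengmaek-san and 1 to 2 for Soyo-san. Under each alternative the median log2 change of all genes was at most 0.0357 in size in every comparison refitted. Counts are of reads without molecular identifiers, genes under about 5 CPM (BNIP3, ADM, PFKFB4, ANKRD37) have the widest errors, and most groups hold 2 or 3 libraries.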

Other observations

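High-dose Aucklandiae Radix also changed genes that set pyruvate use and stress signalling, which the comparisons above do not describe. PDP1, which reactivates pyruvate dehydrogenase, averaged 30.2 CPM, against 11.7 CPM in vehicle (log2 change 1.37). MXD1, a MYC-network repressor, averaged 83.3 CPM, against 32.3 CPM in vehicle (log2 change 1.37). MIR210HG, the host transcript of a hypoxia-induced microRNA, averaged 2.84 CPM, against 0.728 CPM in vehicle (log2 change 1.95). Besides STC1, given above, the ribonuclease gene RNASE4 fell by 1.54 on the log2 scale with high-dose Aucklandiae Radix and by 1.02 with high-dose Polygalae Radix. It also fell with high-dose Menthae Herba (log2 change -1.10) and Guibi-tang (log2 change -1.14). TMEM45A fell by 1.53 with high-dose Aucklandiae Radix, on counts of 1 and 5, against 16, 7 and 9 in vehicle. It also fell with high-dose Menthae Herba (log2 change -1.25). All of these comparisons share the same vehicle libraries.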
